A study of Mus musculus with 19 samples.

Results

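The Sez6 family, 3 of the 35596 genes quantified, was followed through whole vomeronasal organs (VNOs) of mice in which Smad4 had been ablated by either of 2 Cre lines. The members were found by gene symbol: Sez6 (ENSMUSG00000000632.13), Sez6l (ENSMUSG00000058153.15) and Sez6l2 (ENSMUSG00000030683.11), with 22 of the 116072 transcripts matched to the annotation. Sez6l was selected on its rise in the conditional knockouts (cKO) of both lines, so its values in those comparisons are given as a description without a test. The other family members, the neighbouring genes and the gene lists were not used for that choice. The controls entered it only as the reference of the cKO libraries and were not compared among themselves.

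SEZ6, SEZ6L and SEZ6L2 are single-pass membrane proteins of neurons whose extracellular part is built from CUB domains and sushi domains, the fold also found in regulators of complement. SEZ6 and SEZ6L are substrates of the protease BACE1, which releases their ectodomains, and the family is known for roles in dendrite branching, synapse formation and excitatory transmission in the brain. The VNO holds vomeronasal sensory neurons (VSNs) of an apical and a basal type, and SMAD4 is the shared partner of the receptor-regulated SMADs in TGFβ and BMP signalling.

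RNA of VNOs from female mice at postnatal day 21 was sequenced as polyA+ mRNA. In the AP-2εCre line, 3 libraries came from AP-2εCre+/-/Smad4 flox/flox mice (AP-2ε cKO), 3 from AP-2εCre+/- mice (AP-2ε het) and 3 from Smad4 flox/flox mice (AP-2ε flox). The OMPCre line had the same 3 groups, OMPCre+/-/Smad4 flox/flox (OMP cKO), OMPCre+/- (OMP het) and Smad4 flox/flox (OMP flox), also with 3 libraries each. The flox controls carry the genotype label Wild Type, while the series design gives them as Smad4 flox/flox. The cKO and het mice carried a Cre knocked into Tfap2e or Omp, so both lacked 1 intact copy of that gene, which the flox controls kept. AP-2εCre acts in immature basal VSNs and OMPCre in mature apical and basal VSNs, and the libraries hold the unrecombined cells of the organ as well. A further library with labels that contradict each other on its genotype entered no comparison except an alternative fit.

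The 18 libraries held 43385516 to 134042284 estimated counts (median 63096714), and the deepest was an AP-2ε cKO library. Levels are given in counts-per-million (CPM), scaled by edgeR's TMM factors. Smad4 ran from 33.8 to 66.8 CPM in AP-2ε cKO and from 39.8 to 80.6 CPM in the controls of that line, so the groups overlapped. In OMP cKO it ran from 54.2 to 62.5 CPM, below the 65.1 to 83.9 CPM of the controls; these counts also cover the parts of Smad4 outside the floxed segment. Tfap2e stood at 14.0 to 16.7 CPM in AP-2ε flox, 5.42 to 8.86 CPM in AP-2ε het and 10.1 to 12.5 CPM in AP-2ε cKO. Omp stood at 305 to 476 CPM in OMP flox and at 225 to 286 CPM over OMP het and OMP cKO. Markers of apical VSNs (Gnai2, 320 to 477 CPM) and basal VSNs (Gnao1, 135 to 246 CPM) were present in every library. The labels name VSNs as the cell type, but markers of other cells were present too, and some varied widely: the summed level of 6 sustentacular and gland markers ran from 612 to 13400 CPM and that of 4 endothelial markers from 153 to 1450 CPM.

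Sez6l was the family member whose level separated cKO from control libraries, in both lines. In the AP-2εCre line it stood at 1.63, 1.16 and 1.06 CPM in the flox libraries, and at 0.737, 1.55 and 1.44 CPM in the het libraries. The AP-2ε cKO libraries had 4.99, 4.56 and 5.73 CPM, so the lowest cKO library was well above the highest control. The mean was 5.09 ± 0.592 CPM in cKO (SD, n = 3) against 1.26 ± 0.34 CPM in controls (SD, n = 6), a ratio of 4.03. The fitted log2 fold change was 2.01 (SE 0.25), the 8th highest of 15708 genes with a mean of at least 1 CPM. In such whole-organ RNA, a larger number of cells that express a gene and more RNA per cell cannot be told apart.

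In the OMPCre line Sez6l stood at 1.26, 0.98 and 1.56 CPM in the flox libraries, and at 1.14, 1.70 and 1.89 CPM in the het libraries. The OMP cKO libraries had 4.49, 5.56 and 3.95 CPM, again without overlap with the controls. The mean was 4.67 ± 0.821 CPM in cKO (SD, n = 3) against 1.42 ± 0.35 CPM in controls (SD, n = 6), a ratio of 3.28. The fitted log2 fold change was 1.72 (SE 0.24), ranked 12 of 15763 genes. Between the lines the log2 fold changes differed by -0.29 (SE 0.36), OMPCre minus AP-2εCre. Both Cre lines thus showed Sez6l at a few CPM in cKO and near 1 CPM in controls, as the plot of family levels by group shows.

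**Figure D1:**
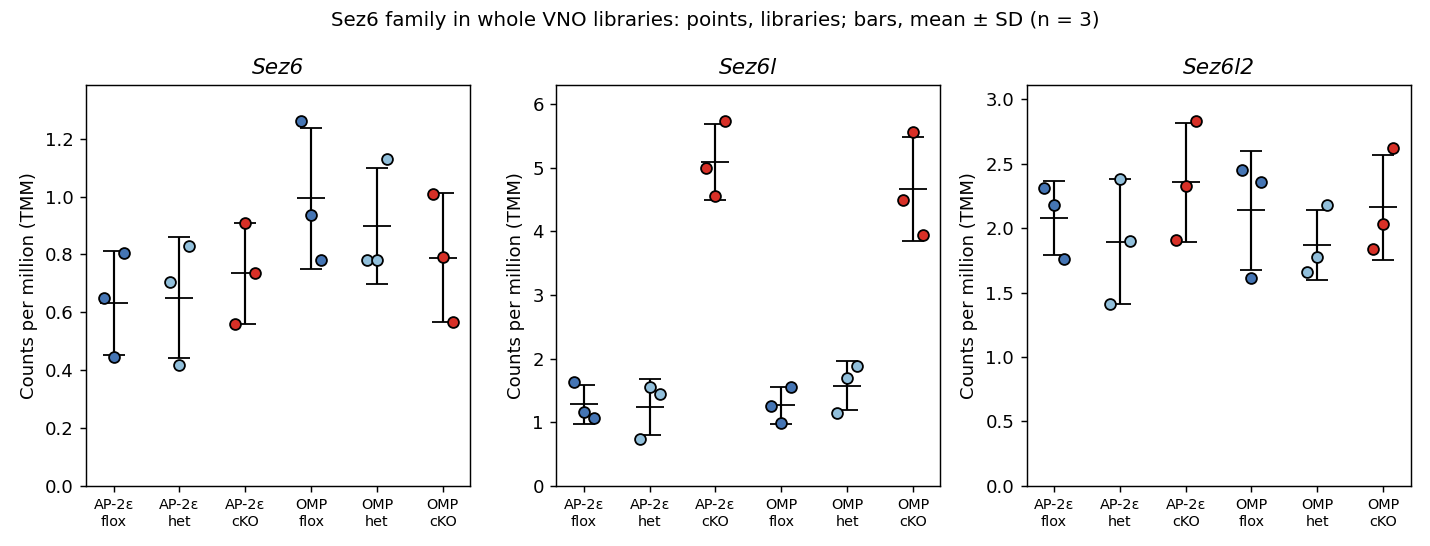
Level of Sez6, Sez6l and Sez6l2 in CPM (vertical axes, starting at 0) in the 6 groups; each point is a library and the bars are the mean ± SD of 3 libraries. Sez6l runs from 3.95 to 5.73 CPM in the cKO libraries and from 0.737 to 1.89 CPM in the controls, while the groups of Sez6 and Sez6l2 overlap.

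The counts behind these levels were low: a control library held 48 to 129 estimated counts of Sez6l, and a cKO library 217 to 636. Leaving out each library in turn gave log2 fold changes of 1.89 to 2.09 in the AP-2εCre line and 1.57 to 1.82 in the OMPCre line. The deposited libraries have names of 2 forms, each of which holds all 3 genotypes in both lines. In the AP-2εCre line the cKO to control ratio was 4.05 in one form and 3.98 in the other. In the OMPCre line it was 3.96 in the form with 2 cKO libraries and 2.29 in the form with 1, where 3.95 CPM in cKO stood against 1.56 and 1.89 CPM in controls.

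Not many genes had all 3 cKO libraries above all 6 controls of the line. In the AP-2εCre line 441 of 18495 genes tested did so (2.38%), and in the OMPCre line 252 of 18623 (1.35%). In both lines together, 35 of 18137 genes did so (0.193%), and 19 had a log2 fold change above 1 in each line (0.105%). Sez6l belongs to each of these counts because it was chosen by this contrast, so nothing is read from them.

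Within the family, the reads were divided differently in cKO and control libraries. Sez6l took 25.8 to 35.6% of the family's estimated counts in AP-2εCre line controls (median 32.6%) and 58.5 to 66.9% in AP-2ε cKO (median 61.6%). In the OMPCre line it took 25.4 to 39.8% in controls (median 32.5%) and 55.4 to 66.3% in cKO (median 61.1%). In both lines this share separated the groups, and since Sez6l enters it, it is not independent of the choice of Sez6l.

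Levels of different genes can be compared only per transcript length, here in TPM, a unit scaled for both length and depth. Over the 12 controls the mean was 0.691 ± 0.477 TPM for Sez6l2, 0.257 ± 0.15 TPM for Sez6 and 0.213 ± 0.0768 TPM for Sez6l (SD, n = 12). Sez6 and Sez6l did not differ beyond this spread. Sez6l2 was the highest of the family in 5 of 6 AP-2εCre line controls and in 6 of 6 OMPCre line controls. In AP-2ε cKO, Sez6l (0.763 to 1.17 TPM) was highest in 3 of 3 libraries, above Sez6l2 (0.607 to 0.849 TPM). In OMP cKO, Sez6l ran from 0.586 to 0.726 TPM and Sez6l2 from 0.42 to 0.847 TPM, and Sez6l was highest in 1 of 3 libraries. TPM of Sez6 and Sez6l2 jumped in single libraries where reads were assigned to short transcripts, as for Sez6l2 in OMP flox replicate 3 (1.87 TPM) and OMP het replicate 1 (1.48 TPM).

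Heterozygous Cre controls were set against flox controls to see whether Cre and the loss of 1 copy of Tfap2e or Omp, with no floxed Smad4 named in the labels, went with a different level of the family. The choice of Sez6l did not set these groups against each other, so they were tested. Both were the reference of the cKO libraries in that choice, which favours a gene at a similarly low level in both. For Sez6l the test is therefore not fully independent of the choice. In AP-2ε het, Sez6l was at 1.24 ± 0.441 CPM against 1.28 ± 0.307 CPM in flox (SD, n = 3 each), with overlapping libraries. The log2 fold change was -0.05 (SE 0.409, 95% interval -0.997 to 0.907), with edgeR's quasi-likelihood adjusted p = 1 and p = 0.9 in the exact two-sided permutation test. In OMP het, Sez6l was at 1.58 ± 0.388 CPM against 1.27 ± 0.292 CPM in flox (SD, n = 3 each), also overlapping. The log2 fold change was 0.31 (SE 0.346, 95% interval -0.51 to 1.14), with edgeR's adjusted p = 0.964 and p = 0.3 by the exact permutation test. Leaving out 1 library at a time gave -0.23 to 0.22 in AP-2ε het and 0.16 to 0.50 in OMP het. With 3 libraries against 3 the exact test cannot go below p = 0.1. The summed level of 4 olfactory sensory neuron markers was 201 to 246 CPM in OMP het and 103 to 137 CPM in OMP flox, without overlap, and all 4 had positive log2 fold changes at an unadjusted p under 0.05 in edgeR, against 5.54% of all genes tested, with 0 called. That of 2 mature VSN markers, of which Omp is 1, was 348 to 372 CPM in OMP het and 389 to 615 CPM in OMP flox. The lower sum came from Omp, which lacks 1 intact copy in OMP het (log2 fold change -0.745, SE 0.165). The other marker, Trpc2, was at 0.139 (SE 0.168). Of the 63 marker genes DESeq2 called 4 in OMP het (Cnga2, Gnal, Cyp2g1 and Omp), against 0.877% of all genes tested, and 1 in AP-2ε het (Tfap2e), against 0.942%. The part of these markers in the Sez6l level was not tested.

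None of the 3 members was called in either het comparison (adjusted p under 0.05), where edgeR called 4 of 17827 genes in the AP-2εCre line (0.0224%) and 8 of 18124 in the OMPCre line (0.0441%). DESeq2 called 168 and 159 genes in these comparisons, again without a family member. Sez6 gave log2 fold changes of 0.04 (SE 0.475) in AP-2ε het and -0.15 (SE 0.377) in OMP het. Sez6l2 gave -0.13 (SE 0.309) and -0.19 (SE 0.285). Each of these 4 differences was smaller than its error, and in each the het and flox libraries overlapped.

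Controls of the lines were compared next, 6 libraries against 6. Sez6l had a log2 difference of 0.17 (SE 0.246, 95% interval -0.36 to 0.70), OMPCre minus AP-2εCre, with edgeR's adjusted p = 0.936 and p = 0.439 by the exact permutation test. For Sez6l2 the difference was 0.02 (SE 0.188), with edgeR's adjusted p = 0.996, and 0.72 when counts were rescaled by transcript length, also not called. Sez6 was at 0.946 ± 0.207 CPM in OMPCre line controls and 0.641 ± 0.176 CPM in AP-2εCre line controls (SD, n = 6 each), a log2 difference of 0.56 (SE 0.26). This passed 0.05 in the exact permutation test (p = 0.0216) but not after adjustment over all genes (edgeR's adjusted p = 0.759), and with the rescaled counts it was 0.00. edgeR called 17 of 17912 genes in this comparison (0.0949%), none of them a family member.

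Sez6, the founding member, was named for its induction by a seizure-evoking agent. In the AP-2εCre line it stood at 0.649, 0.444 and 0.804 CPM in flox, and at 0.706, 0.418 and 0.828 CPM in het libraries. AP-2ε cKO libraries had 0.56, 0.91 and 0.734 CPM, within and just above the control range. The log2 fold change was 0.20 (SE 0.369, 95% interval -0.62 to 1.02), with edgeR's adjusted p = 0.917 and p = 0.464 by the exact permutation test. It was 0.01 without AP-2ε cKO replicate 2 and 0.36 without AP-2ε cKO replicate 1. In the OMPCre line the flox libraries had 1.26, 0.938 and 0.782 CPM, and the het libraries 0.782, 0.782 and 1.13 CPM. OMP cKO libraries had 1.01, 0.79 and 0.565 CPM, overlapping the controls. The log2 fold change was -0.26 (SE 0.32, 95% interval -0.97 to 0.46), with edgeR's adjusted p = 1 and p = 0.357 by the exact permutation test. It was -0.07 without OMP cKO replicate 3 and -0.48 without OMP cKO replicate 1.

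Sez6l2, the third member of the family, stood at 2.31, 2.18 and 1.76 CPM in AP-2ε flox, and at 1.41, 2.38 and 1.9 CPM in AP-2ε het. AP-2ε cKO libraries had 1.91, 2.33 and 2.83 CPM, with 1 of 3 above every control. The log2 fold change was 0.24 (SE 0.238, 95% interval -0.29 to 0.77), with edgeR's adjusted p = 0.804 and p = 0.226 by the exact permutation test. It was 0.09 without AP-2ε cKO replicate 3 and 0.37 without AP-2ε cKO replicate 1. In the OMPCre line Sez6l2 stood at 2.45, 1.61 and 2.36 CPM in flox, and at 1.66, 1.78 and 2.18 CPM in het libraries. OMP cKO libraries had 1.84, 2.03 and 2.62 CPM, with 1 of 3 above every control. The log2 fold change was 0.11 (SE 0.232, 95% interval -0.41 to 0.63), with edgeR's adjusted p = 1 and p = 0.56 by the exact permutation test. It was -0.05 without OMP cKO replicate 3 and 0.21 without OMP cKO replicate 1.

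Neither Sez6 nor Sez6l2 passed in a cKO comparison, where edgeR called 7 of 18495 genes in the AP-2εCre line (0.0378%) and 0 of 18623 in the OMPCre line (0.0%). At an unadjusted p under 0.05, 1892 and 735 genes passed, and DESeq2 called 309 and 43 genes (1.67% and 0.231%); Sez6 and Sez6l2 were not among those called by either tool. Rescaling the counts by transcript length turned the sign for Sez6 in the AP-2εCre line (-0.50) and in the OMPCre line (0.75), and for Sez6l2 in the OMPCre line (-0.53). Within the 2 forms of library name, the cKO to control ratio of Sez6 was 1.48 and 0.686 in the AP-2εCre line and 0.959 and 0.591 in the OMPCre line. That of Sez6l2 was 1.25 and 1.04, and 1.03 and 1.15. The plot of log2 fold changes gives the values of the 3 members side by side, those of Sez6l in cKO as a description.

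**Figure D2:**
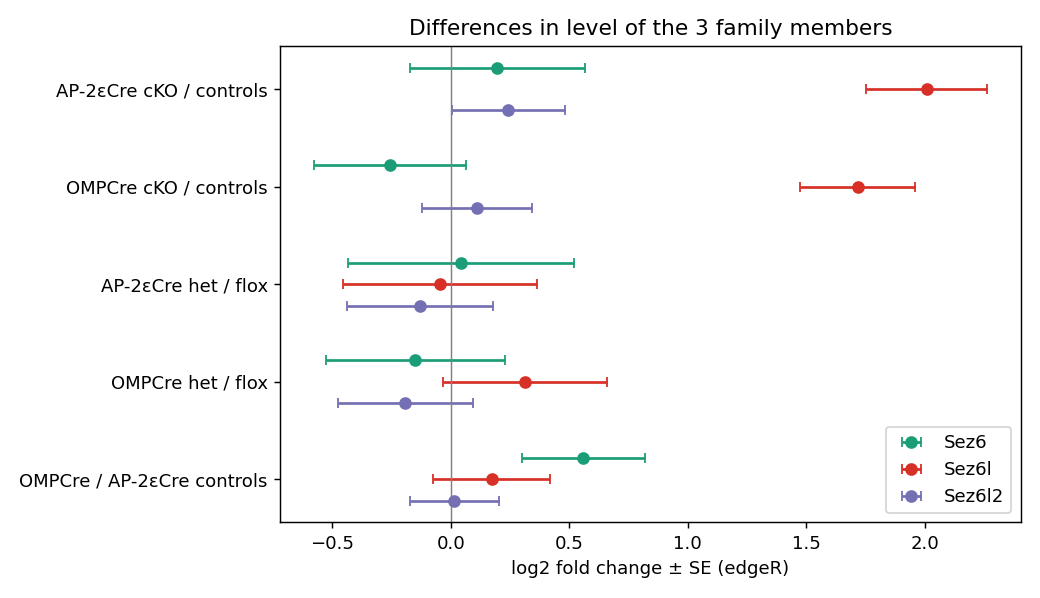
Log2 fold change (horizontal axis, edgeR; bars, ± SE) of each family member in 5 comparisons. The Sez6l values for cKO against controls are 2.01 and 1.72, and the other family values lie between -0.26 and 0.56.

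Whether the cKO effect differed between the Cre lines was tested for Sez6 and Sez6l2 with an interaction term. The difference, OMPCre minus AP-2εCre, was -0.45 for Sez6 (SE 0.449, 95% interval -1.40 to 0.50) and -0.13 for Sez6l2 (SE 0.314, 95% interval -0.79 to 0.54), both with edgeR's adjusted p = 1. edgeR called 0 of 19465 genes in this test (0.0%), with 956 at an unadjusted p under 0.05, and DESeq2 called 19 (0.0976%). For both genes the interval still allows a log2 difference of 0.50 in either direction.

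Sez6l lies on chromosome 5 of GRCm38, 112419151 to 112577185 on the minus strand, and has 6 annotated transcripts. They differ in their first and last exons and at several exons between. Sez6l-204 begins inside an exon of the others, of which it holds 99 bases, and lacks an exon of 192 bases, and Sez6l-206 lacks an exon of 33 bases. The sequences of 2 further places, from the annotated transcripts of GRCm38, are shown because they set Sez6l-203 and Sez6l-205 apart. An exon of 195 bases (chr5:112428376-112428570, minus strand, exon 13 of 17 in Sez6l-205) is part of Sez6l-201, Sez6l-202, Sez6l-204 and Sez6l-205, and absent from Sez6l-203 and Sez6l-206. It is shown in capitals with 30 bases of the exon before it and 30 of the exon after it, followed by the junction of Sez6l-203 that skips it; its length is 65 codons with a remainder of 0.
Exon included, Sez6l-205: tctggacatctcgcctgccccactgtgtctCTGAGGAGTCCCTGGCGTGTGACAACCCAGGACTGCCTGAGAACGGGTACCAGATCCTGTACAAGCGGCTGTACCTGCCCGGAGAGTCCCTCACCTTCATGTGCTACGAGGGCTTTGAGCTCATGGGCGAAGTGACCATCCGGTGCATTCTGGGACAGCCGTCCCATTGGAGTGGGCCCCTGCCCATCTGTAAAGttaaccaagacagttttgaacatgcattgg
Exon skipped, Sez6l-203: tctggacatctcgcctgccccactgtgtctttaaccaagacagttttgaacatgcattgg

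At exon 15 the transcripts differ in where the exon begins, by 3 and 6 bases: Sez6l-203 begins as Sez6l-201 does, and Sez6l-204 and Sez6l-206 as Sez6l-202 does. The lines below give 30 bases before the junction, the added bases in capitals and 30 bases after them. The exon is chr5:112425614-112425722 in Sez6l-201, chr5:112425614-112425725 in Sez6l-202 and chr5:112425614-112425728 in Sez6l-205, all on the minus strand.
Sez6l-201: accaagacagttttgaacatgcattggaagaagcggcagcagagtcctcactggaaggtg
Sez6l-202: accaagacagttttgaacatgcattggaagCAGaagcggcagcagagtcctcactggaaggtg
Sez6l-205: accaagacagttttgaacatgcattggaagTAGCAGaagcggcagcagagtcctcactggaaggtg

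Most of the Sez6l counts in cKO libraries were assigned to Sez6l-205. It held 286.6, 555.5 and 89.8 estimated counts in the AP-2ε cKO libraries (89.3, 87.3 and 23.0% of the gene) and 217.6, 116.8 and 201.3 in the OMP cKO libraries (75.5, 33.9 and 92.8%). In controls it was above 0 in 8 of 12 libraries. Sez6l-201, which like Sez6l-203 lacks the added bases, was above 0 in 4 of 6 cKO libraries and 2 of 12 controls. In OMP cKO it took 24.5, 66.1 and 7.23% of the gene. Each library of that group was thus assigned both Sez6l-201 and Sez6l-205, in unlike proportions.

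The transcript Sez6l-203, which skips exon 13, held 34.4, 80.5 and 84.3 counts in the AP-2ε cKO libraries, 10.7, 12.7 and 21.6% of the gene. Among AP-2εCre line controls it was above 0 in 1 library, AP-2ε flox replicate 3, with 11.4 counts and 23.2% of the gene. It was at 0 in all 9 OMPCre line libraries, although their cKO libraries held as many as 345 counts of the gene. The skipping transcript was thus assigned reads in 3 of 3 cKO libraries of one line and 0 of 3 of the other, and this difference was not tested.

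Other transcripts were seen mainly in controls. Sez6l-202 was above 0 in 7 controls and 0 cKO libraries, and Sez6l-204 in 6 controls and 1 cKO library. In 7 of 7 libraries with counts of Sez6l-202, its count equalled that of Sez6l-205 within 0.1, so the quantification split the reads evenly between them. Sez6l-206 was at 0 everywhere. Control libraries had 48 to 129 counts to divide among 6 transcripts. Sez6l-201, Sez6l-204 and Sez6l-205 each led in some libraries, and Sez6l-202 was at most level with Sez6l-205. The rise of the gene's summed count does not depend on how these reads were divided.

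**Figure D3:**
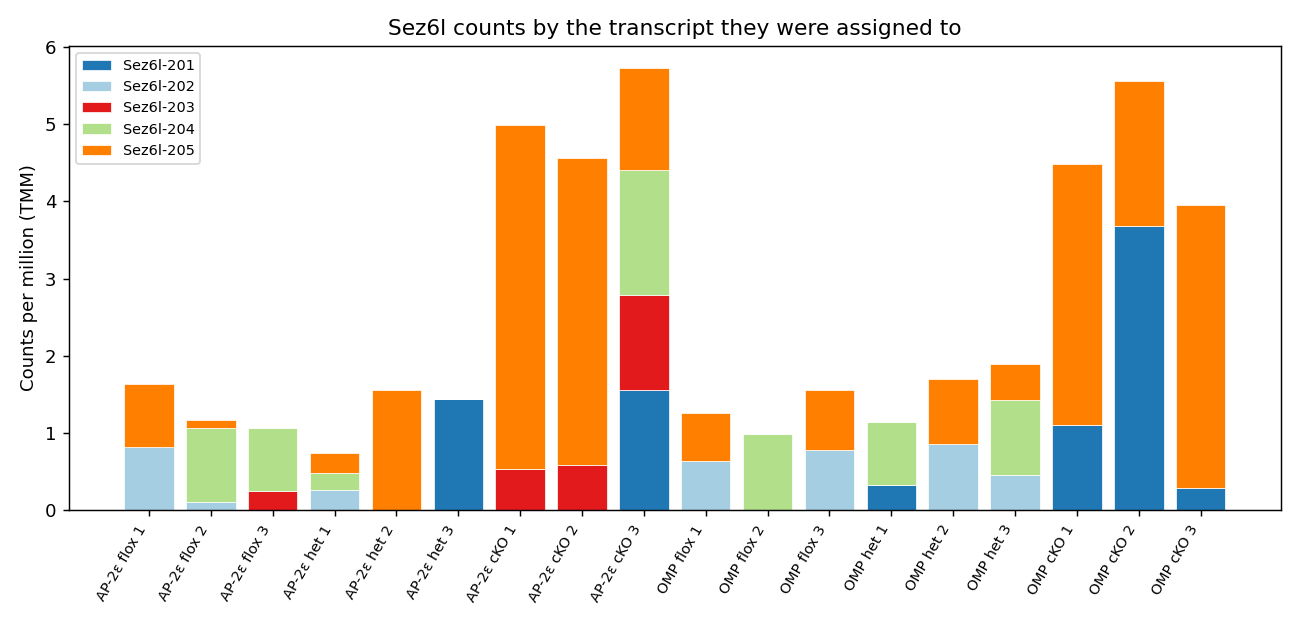
Sez6l level in each of the 18 libraries in CPM (vertical axis, starting at 0), stacked by the transcript to which the reads were assigned. Sez6l-205 (orange) is present in all 6 cKO libraries, and Sez6l-203 (red) in the 3 AP-2ε cKO libraries and in 1 control.

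Sez6 (chromosome 11, 77930800 to 77979048, plus strand) has 9 annotated transcripts and Sez6l2 (chromosome 7, 126950563 to 126970606, plus strand) has 7. For these genes the share of each transcript was tested, since the transcripts were not used to choose Sez6l. Of 21 exact permutation tests of a share, 0 had p under 0.05, and the smallest adjusted p of the permutation tests was 0.75. With shares of summed TPM, 1 of 21 had p under 0.05, that of Sez6l2-201 in the OMPCre line (p = 0.0357, adjusted p = 0.75, exact permutation test). Among shares of estimated counts the smallest raw value, p = 0.0714 in the exact permutation test, was for the coding transcript Sez6-201 in the OMPCre line, at 0% in 3 of 3 cKO libraries and at a mean of 58.9% in controls. Sez6-208, annotated as a target of nonsense-mediated decay, had a mean share of 61.6% in the cKO and 14.4% in the control libraries of that line (p = 0.155, exact permutation test).

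Per transcript, edgeR called 0 of 58883 transcripts in the AP-2εCre line (0.0%; 2850 at an unadjusted p under 0.05) and 2 of 59367 in the OMPCre line (0.00337%; 1502), and none of the called transcripts was of Sez6 or Sez6l2. Of the 6 transcripts of these genes fitted in the OMPCre line, 1 had an unadjusted p under 0.05 in edgeR. DESeq2 called 1 transcript of these genes, Sez6-201 in the OMPCre line, at a fitted log2 value of -7.43 (DESeq2's adjusted p = 0.0296), where edgeR's adjusted p was 1. Over all transcripts DESeq2 called 634 in the AP-2εCre line (1.08%) and 288 in the OMPCre line (0.485%). A fold against libraries at 0 depends on how the tool treats 0 and is not a measure of size. Of the Sez6l2 transcripts, the longest was above 0 in 14 of 18 libraries, Sez6l2-202 in 12 and Sez6l2-201 in 10, and the leading one changed from library to library.

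Reads shared with other genes could have touched the family. Of the 31-base words of each gene's transcripts, 0 of 6185 in Sez6l, 42 of 5920 in Sez6 (0.709%) and 385 of 4318 in Sez6l2 (8.92%) also occur in another gene. No word is shared within the family. The shared words of Sez6l2 are those of the overlapping gene Gm21984, not analysed here, so part of the Sez6l2 reads is uncertain.

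The genes beside Sez6l were examined to see whether the higher level extended along the chromosome. Of the 5 nearest tested protein-coding genes on each side, 0 of 10 was called in either line by edgeR or DESeq2, none had an unadjusted p under 0.05, and none had all cKO libraries above all controls. With 2.38% and 1.35% of all genes tested lying above the controls, and 10.2% and 3.95% at an unadjusted p under 0.05, counts of 0 among 10 genes are near the background. The smallest adjusted p (edgeR) was 0.586 in the AP-2εCre line and 1 in the OMPCre line. Log2 fold changes ran from -1.02 to 0.33 (7 of 10 positive) and from -0.27 to 0.33 (4 of 10 positive). On the side of lower coordinates lie Tpst2, Tfip11, Srrd, Hps4 and Asphd2, and on the other Myo18b, Grk3, Crybb3, 2900026A02Rik and Tmem211.

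Asphd2, the closest of them at 24.3 kb from the 3' end of Sez6l, had log2 fold changes of 0.33 (SE 0.184, edgeR's adjusted p = 0.586) and -0.27 (SE 0.194, edgeR's adjusted p = 1). The first was 0.20 without AP-2ε cKO replicate 2 and 0.21 against het controls alone, and the second was -0.17 without OMP cKO replicate 1 and 0.24 with counts rescaled by transcript length. The largest difference was that of Crybb3, a lens crystallin gene at a mean of 0.207 CPM, at -1.02 in the AP-2εCre line (SE 0.737, edgeR's adjusted p = 0.706) and at -0.12 in the OMPCre line (SE 0.509, edgeR's adjusted p = 1). Its value in the AP-2εCre line was -1.81 without AP-2ε cKO replicate 1, -0.59 without AP-2ε cKO replicate 3 and -2.46 with counts rescaled by transcript length. Hps4, which acts in the biogenesis of lysosome-related organelles, and Grk3, a kinase that desensitises receptors, were at means of 14.4 and 59.8 CPM. The plot by distance gives the values of all 10 genes, out to 650 kb away.

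**Figure D4:**
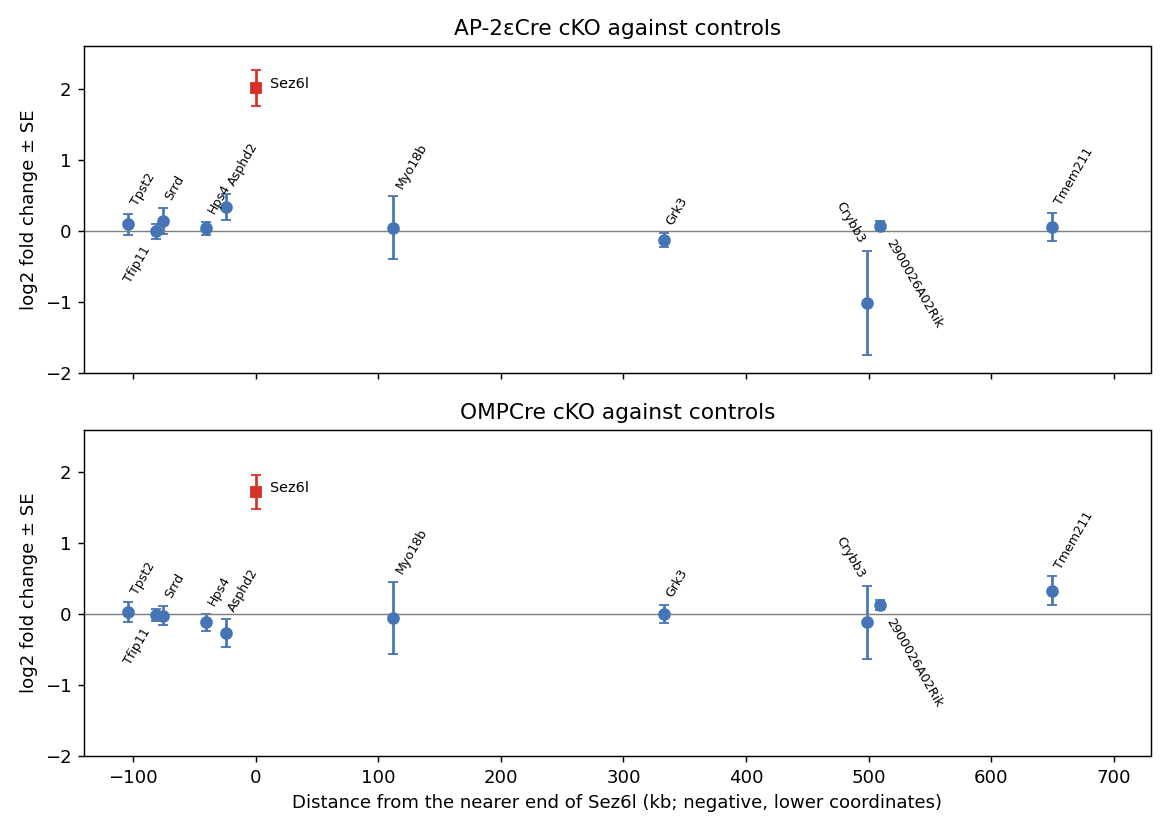
Log2 fold change (vertical axes; bars, ± SE) of Sez6l (red square) and the 10 neighbouring genes (blue points) against their distance from Sez6l in kb, in the AP-2εCre line (top) and the OMPCre line (bottom). The neighbours lie between -1.02 and 0.33.

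Lists of 68 genes that act with the family or share its domains were described in the same fits, without a test of the lists. edgeR called 0 of the 68 in the AP-2εCre line and 0 of 67 in the OMPCre line, with 7 and 2 at an unadjusted p under 0.05; DESeq2 called 0 in both lines. Over all genes tested, 0.0378% and 0.0% were called by edgeR, and 10.2% and 3.95% had an unadjusted p under 0.05, so these counts are near the background. Of the fold changes, 42 were positive and 26 negative in the AP-2εCre line, and 42 and 25 in the OMPCre line. The median over all genes tested was 0.003 and -0.005.

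The secretases, which cleave SEZ6 proteins and APP, showed small differences. Of 11 genes, 8 had a positive and 3 a negative fold change in each line, with medians of 0.05 and 0.03. Ncstn and Adam10 were the highest of them, at means of 162 and 133 CPM. Bace1, the protease that sheds SEZ6 and SEZ6L, was at 110 CPM on average and had a log2 fold change of 0.33 in AP-2ε cKO (SE 0.109, edgeR's adjusted p = 0.351), which was 0.18 without AP-2ε cKO replicate 1 and 0.59 with counts rescaled by transcript length. In OMP cKO it had 0.10 (SE 0.118, edgeR's adjusted p = 1). Bace2 had -0.33 in AP-2ε cKO (SE 0.101, edgeR's adjusted p = 0.328), or -0.67 with the rescaled counts, and 0.04 in OMP cKO (SE 0.116, edgeR's adjusted p = 1).

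Other substrates of BACE1 in neurons, 9 genes led by App (1050 CPM), Aplp2 (842 CPM) and Aplp1 (230 CPM), had 7 positive fold changes in each line and medians of 0.09 and 0.12. Kainate and AMPA receptor subunits with their Neto partners were next. Of these 11 genes, led by Neto2 (16.8 CPM), Grik5 (16.7 CPM) and Gria3 (14.7 CPM), 7 and 9 had positive fold changes, with medians of 0.16 and 0.24.

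Other proteins with CUB or sushi domains had medians of 0.13 over 18 genes in the AP-2εCre line and -0.02 over 17 in the OMPCre line. Pcolce, an enhancer of procollagen processing, Susd6 and Cdcp1 were the highest of them, at 137, 120 and 40.0 CPM. Complement components and regulators, 19 genes, among them C4b (78.1 CPM) and C3 (69.4 CPM), had medians of -0.04 and 0.04.

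Of the 63 genes in the 14 lists of cell type markers, edgeR called 0 of 61 tested in the AP-2εCre line and 0 of 63 in the OMPCre line. An unadjusted p under 0.05 was found for 12 and 9 of them, against 10.2% and 3.95% of all genes tested; DESeq2 called 1 in the AP-2εCre line, Obp1a of the gland list, and 0 in the OMPCre line. The summed level of 3 apical VSN markers (Gnai2, Meis2, Nrp2) was 976 to 1020 CPM in AP-2ε cKO and 754 to 905 CPM in controls, and 938 to 984 CPM in OMP cKO and 813 to 898 CPM in controls. All 3 had positive log2 fold changes, of 0.075 to 0.289 and of 0.186 to 0.229, none of them at 0 in any library. The summed apical markers thus separated the groups in both lines as Sez6l did, by much smaller factors. Of all genes tested, 2.38% and 1.35% lay above the controls in this way. In each line 2 of the 3 markers had an unadjusted p under 0.05 in edgeR. Meis2 in AP-2ε cKO (0.075, SE 0.072) and Nrp2 in OMP cKO (0.229, SE 0.118) did not. The part of these markers in the Sez6l level was not tested.

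The summed level of 4 immune markers was 157 to 167 CPM in AP-2ε cKO and 121 to 146 CPM in controls without overlap, and 131 to 140 CPM in OMP cKO and 115 to 164 CPM in controls with overlap. Sustentacular and gland markers (6 genes) were at 612 to 840 CPM in AP-2ε cKO and 1210 to 11500 CPM in controls, and overlapped in the OMPCre line (660 to 4510 and 810 to 13400 CPM). Obp1a alone had means of 1560 CPM in AP-2ε flox and 3980 CPM in AP-2ε het, against 41.5 CPM in AP-2ε cKO. Progenitor markers (5 genes) ran from 172 to 201 CPM in AP-2ε cKO and 95.4 to 181 CPM in controls, and from 77.4 to 115 CPM in OMP cKO and 109 to 169 CPM in controls. Of the sustentacular and gland markers, 0 of 6 had a positive log2 fold change in AP-2ε cKO (median -0.47) and 1 of 6 in OMP cKO (median -0.38). They did not move as a class in AP-2ε cKO. Obp1a was at -6.06 (SE 1.33), Cyp2a5 at -1.37 (SE 0.439) and Bpifb4 at -0.876 (SE 0.647). Cyp2g1 (-0.058, SE 0.199), Ermn (-0.058, SE 0.153) and Krt18 (-0.025, SE 0.111) differed by less than their errors. The part of these 3 lists in the Sez6l level was not tested. Over all libraries, basal VSN markers (5 genes) overlapped between cKO and controls, at 621 to 756 and 647 to 944 CPM in the AP-2εCre line and at 725 to 803 and 698 to 826 CPM in the OMPCre line. In AP-2ε cKO, 0 of 5 had a positive log2 fold change (median -0.15), and Vmn2r7, a vomeronasal receptor gene, was at -0.71 (SE 0.264, unadjusted p = 0.0215 and adjusted p = 0.4 in edgeR). In OMP cKO 2 were positive and 3 negative.

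Genes whose levels followed Sez6l most closely were named by Pearson's r of log2(CPM + 0.1) over the 18 libraries, among 15837 genes with a mean of at least 1 CPM. They were Unc13c (r = 0.899), which primes synaptic vesicles for release, Nhlh2 (0.899), a transcription factor of developing neurons, Tmem104 (0.882), Gcnt2 (0.88), a glycosyltransferase, and Ppic (0.877), a cyclophilin. The libraries fall into 2 clusters, cKO and control, and the genotype and depth shared by the points enter these values. Over the 12 controls alone, r with Sez6l was 0.248 for Unc13c and 0.463 to 0.536 for the other 4 genes. Over the 6 cKO libraries it was -0.424 for Unc13c, -0.322 for Gcnt2, -0.0402 for Tmem104, 0.149 for Nhlh2 and 0.866 for Ppic. These values are descriptions and no test was made.

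Unc13c was at 2.41 to 4.38 CPM in AP-2εCre line controls and 9.1 to 12.2 CPM in AP-2ε cKO, and at 2.69 to 5.05 CPM in OMPCre line controls and 10.5 to 15.3 CPM in OMP cKO. Its log2 fold changes were 1.74 (SE 0.215) and 1.69 (SE 0.189), close to those of Sez6l in both lines. The other 4 moved in the same direction by less. Nhlh2 ran from 42.8 to 60.7 CPM in AP-2εCre line controls and 65.6 to 82.0 CPM in cKO, and from 44.2 to 53.9 and 66.0 to 74.4 CPM in the OMPCre line. Tmem104 had log2 fold changes of 0.51 and 0.50, Gcnt2 of 0.35 and 0.48, and Ppic of 0.33 and 0.22. Genes most like a gene chosen for this contrast must differ in it too, so these fold changes carry no test.

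**Figure D5:**
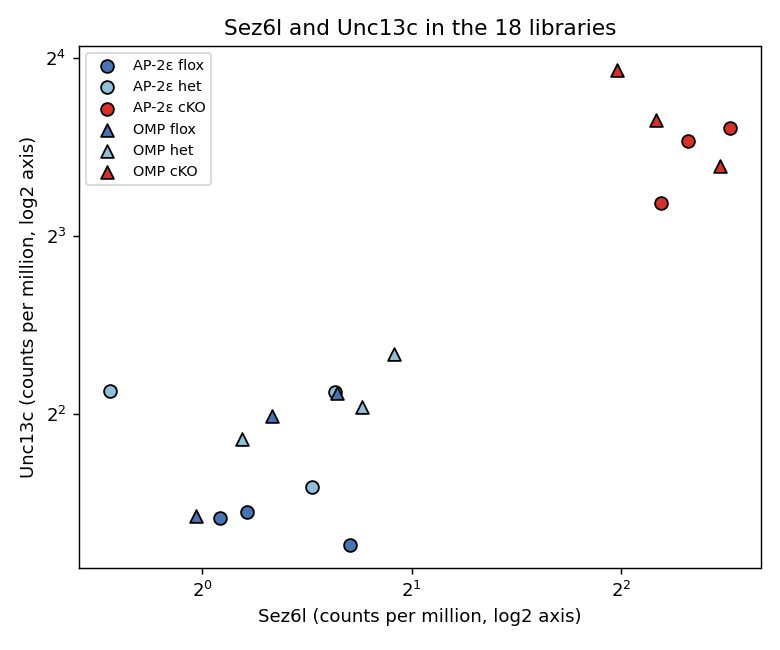
Level of Unc13c against that of Sez6l in the 18 libraries (both in CPM on log2 axes); circles are AP-2εCre line libraries and triangles OMPCre line libraries. The 6 cKO libraries (red) lie at the upper right, with Unc13c from 9.1 to 15.3 CPM, apart from the 12 controls, with Unc13c from 2.41 to 5.05 CPM.

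With each library's group mean subtracted, the closest genes to Sez6l were Gng2 (r = 0.915), Ccnjl (0.882), Fam104a (0.866), Dcaf12l1 (0.854) and Fam163a (0.843). No gene of the first 5 was among them. Within the family, Sez6l and Sez6l2 had r = 0.482, rank 1131 among the genes compared with Sez6l, while r was -0.015 between Sez6 and Sez6l and -0.148 between Sez6 and Sez6l2. Genes closest to Sez6 were Pgp (0.745), Dhdds (0.732), Slc52a2, Hs6st1 and Olfr77, and those closest to Sez6l2 were Cdh4 (0.835), Parp6, P4htm, Clstn2 and Tmem200a. The 3 family members thus had different nearest genes. Sez6l and Sez6l2 were not among the 5 closest of each other or of Sez6. Sez6, at a mean of 0.783 CPM, was below the limit of 1 CPM and could not be among those of the others.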

How the data were processed

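PolyA+ RNA of whole VNOs at postnatal day 21 was sequenced by the authors as stranded single reads of 75 bases, from RNA of a RIN above 8. The deposited tables give, per transcript, estimated counts and TPM from salmon 0.14.0, which the authors ran against a GRCm38 (mm10) mouse assembly named as coding sequences; 35.4% of the listed lengths are multiples of 3, so whole transcripts were listed. The authors' own tests used DESeq2 1.22.2. Here, the expected counts of 116072 of 116248 transcripts that matched GENCODE vM21 were summed per gene and rounded; 176 transcripts without a match took no more than 0.0324% of any library's counts. TPM were summed per gene without change. Each library is labelled as a separate biological replicate.

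The main test was edgeR 4.0.16 (R 4.3.3), glmQLFit and glmQLFTest with TMM factors and filterByExpr, with Benjamini-Hochberg adjustment over all genes tested and calls at 0.05. Each cKO group (3 libraries) was compared with the 6 controls of its line, het with flox, and the lines with each other. Exact two-sided permutation tests over libraries of a gene's CPM had 84 splits for 3 against 6 (smallest p 0.0119), 20 for 3 against 3 (smallest p 0.1) and 924 for 6 against 6 (smallest p 0.00216). The fits were tested on simulated counts with known changes. DESeq2 1.42.0, other filters, scalings, controls and left-out libraries were alternatives. Python 3.11.15 (pandas 2.3.3, numpy 2.4.6, matplotlib 3.10.9) did the rest.

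Members and gene lists were chosen with earlier results of these data known. Named genes are the family, Smad4, Tfap2e and Omp, the 3 highest members of each pathway list (1 of these genes is not reported here) and any called, the 5 nearest tested genes on each side of Sez6l, the 5 genes of highest r with each member, and markers that move with it; Bace2, Obp1a, Vmn2r7, Cnga2, Gnal, Cyp2g1, and Crybb3 and Asphd2 for their fold changes, were singled out after their values were seen. The library with conflicting labels was left out of all main comparisons and was added to AP-2ε het only in an alternative fit.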

Additional observations from a re-analysis of the deposited data

How the results depend on the processing

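Of 333 alternative values for the family's fold changes, 313 kept their direction, with no change of call where a test was made, and 20 turned sign. None of these 20 was of Sez6l in a cKO comparison, which has values but no test. That gene's log2 fold change stayed at 1.89 to 2.11 over 21 alternatives in the AP-2εCre line and at 1.57 to 1.88 over 20 in the OMPCre line, and the difference between lines at -0.48 to -0.18 over 24. Counts scaled by transcript length (length-scaled TPM) turned Sez6 to -0.50 in AP-2ε cKO, 0.75 in OMP cKO, -1.05 in AP-2ε het and 1.25 for the difference between lines. They turned Sez6l2 to -0.53 in OMP cKO and 0.02 in OMP het, and Asphd2 to 0.24 in OMP cKO. Leaving out 1 library at a time gave, for Sez6l2, -0.05 to 0.21 in OMP cKO, -0.33 to 0.04 in AP-2ε het, -0.29 to 0.03 for the difference between lines and -0.07 to 0.07 between line controls. It gave -0.17 to 0.28 for Sez6 and -0.23 to 0.22 for Sez6l in AP-2ε het, and -0.34 to 0.06 for Sez6 in OMP het. In OMP cKO it gave -0.01 to 0.17 for Bace1, -0.03 to 0.11 for Bace2 and -0.57 to 0.12 for Crybb3; Bace2 was -0.03 against flox alone, and Crybb3 was 0.01 and Bace1 0.00 against het alone. No value that turned sign was called, and the smallest adjusted p of Sez6 and Sez6l2 over the alternatives was 0.825 and 0.683 in AP-2ε cKO and 0.985 and 0.994 in OMP cKO.

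Counts of genes called depended strongly on the setting. In AP-2ε cKO, 7 genes became 309 with DESeq2, 2 with length-scaled counts, 2 with the library name form, 2 with the replicate block, 11 in a 3-group fit, 24 against flox alone, 16 with all 18 libraries in 1 fit, 0 with the library of conflicting labels added, and 2 to 8 without 1 library. In OMP cKO, 0 became 43 with DESeq2, 2 with at least 10 counts in every library, 1 with the name form, 6 in the 3-group fit, 11 against het alone, 15 with all 18 libraries, and 0 to 2 without 1 library. In AP-2ε het, 4 became 168 with DESeq2, 8 with at least 1 count in total, 2 with at least 10 counts, 2 with the name form, 9 in the 3-group fit, and 3 to 28 without 1 library (28 without het replicate 2). In OMP het, 8 became 159 with DESeq2, 1 with at least 10 counts, 3 with length-scaled counts, 2 with the replicate block, 14 in the 3-group fit, and 0 to 15 without 1 library (0 without het replicate 3, 15 without flox replicate 3). Between lines the count of 0 became 19 with DESeq2 and 0 to 1 without 1 library, and between line controls 17 became 97 with DESeq2, 5 with at least 10 counts and 11 with length-scaled counts. DESeq2 called 1 Sez6 or Sez6l2 transcript in OMP cKO, where edgeR called 0. The cause of these shifts was not tested.

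In the AP-2εCre line, deviations from the group means of same-numbered libraries had a mean r of -0.0823 (-0.323 to 0.225), against 0.0419 for other pairs, and 3 of 9 libraries were closest to their own number. In the OMPCre line the mean was 0.214 (-0.0221 to 0.493), against -0.105, and 8 of 9 libraries were closest to their own number, a hint of pairing from the data. In the OMPCre line replicate 3 of each group had one form of library name and replicates 1 and 2 the other. Number and name form thus go together there. In the AP-2εCre line they do not, as the single library of its form was replicate 3 in flox and het but replicate 1 in cKO. The part of the name form in this pairing was not tested. Not every pair reached 0.1 in either line and the labels name nothing else shared by the numbers, so the tests have no replicate block. The block changed no call of a family member. Leaving out libraries was not run for transcript shares. Sez6 had 20 to 83 counts in a control library, and the parts of depth and of spread between libraries in its intervals were not tested.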

Other observations

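The library whose labels conflict (titled as an AP-2ε heterozygote, with a genotype label of cKO) held 49415894 estimated counts. Sez6l was at 45 counts and 0.892 CPM in it, Sez6 at 23 counts and 0.456 CPM, and Sez6l2 at 122 counts and 2.42 CPM. Its Sez6l level was below the 4.56 to 5.73 CPM of the AP-2ε cKO libraries and within the 0.737 to 1.63 CPM of the AP-2εCre line controls. This value was not used to assign the library.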
